A study of Mus musculus with 36 samples.

Results

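Replication timing (RT) of the cytochrome P450 genes was read from maps of early and late replicating domains in mouse cells. The genes were the protein-coding genes on autosomes whose symbol is Cyp followed by a family number, a letter and a gene number, and each was placed by its gene start in the mm9 annotation. This rule found 90 genes of 21418 autosomal protein-coding genes. They lay on 14 chromosomes at 32 loci. Of the 90 genes, 68 fell into 10 clusters, defined as neighbouring Cyp gene starts at most 500 kb apart, and 22 stood alone. Clusters held 2 to 14 members. The rule left out 13 further autosomal genes whose symbols start with Cyp and a digit, of which 8 were protein-coding, such as Cyp51, and 5 were pseudogenes. Some of these protein-coding genes start inside the Cyp2j, Cyp3a, Cyp2d and Cyp4a arrays described below. Counts of array members leave them out, and their states are not given.

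The series held 36 Repli-seq libraries in 7 groups of B cells, each library made from the early or the late S phase fraction of cells pulsed with BrdU for 2 h. The libraries of 2 groups are behind the B cell maps used here. The first is CH12, a mouse B lymphoma line, carrying an shRNA against LacZ (shLacZ, the control for infection and shRNA expression) and stimulated with IL4, CD40 and TGF-beta. The second is wild-type (WT) primary splenic B cells, activated in culture, from mice on a C57BL/6 background, of which the sources used here gave no age. Each map merged 4 libraries, an early and a late fraction with 2 replicates each, so there was 1 map per condition and no replicate spread. A further map, named for WT mouse embryonic fibroblasts (MEFs), was tied by the labels to no sample of the series. Its values are given as a description. The maps assigned each 20 kb bin to 1 of 3 states, early (E), middle (M) or late (L), and held no RT value. The other 5 groups, with shMcm6 or with Rif1 deleted, were not analysed here. CH12 is 1 cell line, and the RT values that separate the states can differ between maps. A difference between maps therefore has no test and cannot be told apart from a difference between libraries, and no expression was measured.

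Cytochrome P450 enzymes are haem proteins that insert an oxygen atom into small lipophilic molecules. Families 1 to 3 oxidize drugs and other foreign compounds, and many of their genes are expressed mainly in liver, intestine, kidney or the nasal lining. Family 4 hydroxylates fatty acids and eicosanoids at the end of the chain. Other families build steroid hormones and bile acids or activate and clear vitamin D and retinoic acid. Many members of families 2 to 4 arose by repeated tandem duplication and sit in arrays of near-identical copies, which differ in number between rodents and other mammals. Replication timing is set over large domains, and in many cell types early domains are rich in genes and active chromatin.

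Sequence around the gene starts is shown for 5 members that differ in state or CpG content. Each is the 300 bases from 250 before the gene start to 50 from it, read 5′ to 3′ on the strand of the gene from the mm9 genome, with CpG dinucleotides in capitals. Cyp26a1 clears retinoic acid and was E in all 3 maps. Its window held 26 CpG. Cyp1a1, the classical target of the aryl hydrocarbon receptor, was also E in all 3 maps and held 4. Cyp7b1, the oxysterol 7-alpha-hydroxylase, was L in all 3 maps and held 12. Cyp2c67 lay in the middle of the largest array, was L in all 3 maps and held 1. Cyp19a1, the aromatase that makes oestrogens, was M in CH12 and MEFs and L in primary B cells, and held 6.
Cyp26a1 (chr19:37772048-37772347, plus strand): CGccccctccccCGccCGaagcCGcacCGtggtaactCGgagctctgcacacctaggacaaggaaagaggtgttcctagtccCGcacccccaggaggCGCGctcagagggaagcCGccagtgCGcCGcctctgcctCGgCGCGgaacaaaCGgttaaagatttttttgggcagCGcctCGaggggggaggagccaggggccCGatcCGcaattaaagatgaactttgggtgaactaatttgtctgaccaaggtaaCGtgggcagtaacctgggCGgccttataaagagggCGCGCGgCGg
Cyp1a1 (chr9:57545170-57545469, plus strand): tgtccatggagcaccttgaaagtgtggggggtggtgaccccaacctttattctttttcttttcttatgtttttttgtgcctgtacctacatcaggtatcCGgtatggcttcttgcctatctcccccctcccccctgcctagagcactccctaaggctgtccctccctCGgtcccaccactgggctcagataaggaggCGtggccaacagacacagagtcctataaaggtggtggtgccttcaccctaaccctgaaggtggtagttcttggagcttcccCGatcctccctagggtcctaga
Cyp7b1 (chr3:18143289-18143588, minus strand): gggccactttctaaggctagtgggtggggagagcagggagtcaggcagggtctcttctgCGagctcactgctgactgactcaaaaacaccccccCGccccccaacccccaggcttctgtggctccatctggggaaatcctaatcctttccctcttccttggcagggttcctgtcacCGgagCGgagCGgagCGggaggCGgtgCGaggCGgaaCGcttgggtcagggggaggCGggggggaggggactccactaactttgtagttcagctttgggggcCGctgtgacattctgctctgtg
Cyp2c67 (chr19:39723492-39723791, minus strand): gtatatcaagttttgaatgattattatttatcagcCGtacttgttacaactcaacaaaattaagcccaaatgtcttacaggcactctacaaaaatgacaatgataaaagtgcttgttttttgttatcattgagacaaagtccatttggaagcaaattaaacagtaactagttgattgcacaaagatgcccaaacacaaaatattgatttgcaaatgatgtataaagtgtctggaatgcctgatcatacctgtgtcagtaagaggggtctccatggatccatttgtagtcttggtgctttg
Cyp19a1 (chr9:54115868-54116167, minus strand): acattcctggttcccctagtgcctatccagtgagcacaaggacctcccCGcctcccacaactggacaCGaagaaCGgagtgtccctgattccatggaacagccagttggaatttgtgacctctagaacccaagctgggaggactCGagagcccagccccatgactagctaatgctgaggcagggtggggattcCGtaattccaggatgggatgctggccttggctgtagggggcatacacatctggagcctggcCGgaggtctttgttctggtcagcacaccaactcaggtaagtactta

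Over the family as a whole CpG was sparse at gene starts in every state, and Cyp26a1 was an exception. The median window of the 90 members held 3 CpG, against 12 over all autosomal protein-coding genes. At least 10 CpG were present in 12 members (13.3%), against 54.6% of all genes. Among members with an E start in CH12 cells the median was 3 CpG, against 16 over all E genes. Among L members it was 2, against 3 over all L genes. The letters TATAAA, the core of the TATA box, were found on either strand in 33 member windows (36.7%) and in 13.5% of all windows. They occurred in 8 of 29 E members, 12 of 26 M members and 13 of 35 L members of the CH12 map. The letters GCGTG, the core of the element bound by the aryl hydrocarbon receptor and its partner, were found on either strand in 19 member windows (21.1%) and in 37.3% of all windows. The Cyp1a1 window printed above holds both strings. GCGTG contains a CpG, so its share also follows CpG content. These matches are letters in a window, not binding sites.

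Cyp gene starts were less often E and more often L than the starts of all genes in each of the 3 maps, as the plot of state shares shows. In CH12 cells 29 members were E (32.2%, Wilson 95% interval 23.5 to 42.4), against 51.8% of all genes. L held 35 members (38.9%, 29.5 to 49.2), against 21.3%, and M held 26 (28.9%, 20.5 to 39.0), against 26.9%. In primary B cells 37 members were E (41.1%, 31.5 to 51.4), against 59.2%, while 33 were M (36.7%, 27.4 to 47.0), against 28.2%. L held 20 (22.2%, 14.9 to 31.8), against 12.6%. In the MEF map 32 members were E (35.6%, 26.4 to 45.8), against 61.1%. Here 43 were M (47.8%, 37.8 to 58.0), against 27.9%, and 15 were L (16.7%, 10.4 to 25.7), against 11.0%, so the interval for L included the share of all genes. These intervals cover counting error only, and neighbours in an array share a domain, so the members are not independent. In CH12 cells the 35 L starts lay in 10 L domains, in primary B cells the 20 lay in 6, and in MEFs the 15 lay in 4. With each of the 32 loci weighted equally, the E shares were 48.4%, 56.4% and 62.8% in CH12, primary B cells and MEFs. The L shares were then 25.5%, 12.0% and 8.56%. With that weighting, M in CH12 cells (26.1%), L in primary B cells and E and L in MEFs no longer lay on the same side of the share of all genes. The shares of all genes were not weighted by locus, so this comparison is not of like with like. Within the Cyp genes, the shares depended on counting each array member separately.

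**Figure D1:**
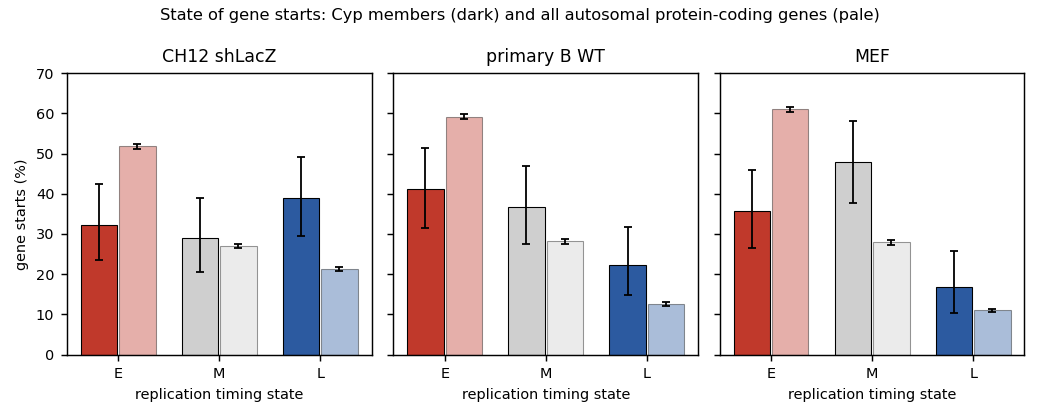
Share of gene starts (y axis, percent) in states E, M and L (x axis) in each map, for the 90 Cyp genes (dark bars) and all 21418 autosomal protein-coding genes (pale bars), with Wilson 95% intervals that cover counting error only. E is lower in the Cyp genes than in all genes in each map, 32.2% against 51.8% in CH12 cells, and L is higher, 38.9% against 21.3%.

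State counts differed between members inside and outside clusters, a split that was not tested. Of the 68 members in clusters, 18 were E, 20 M and 30 L in CH12 cells (26.5% E, 44.1% L). Of the 22 members outside clusters, 11 were E, 6 M and 5 L. Their shares, 50.0% E and 22.7% L, were near the 51.8% and 21.3% of all genes. In primary B cells the clustered members were 24 E, 26 M and 18 L (35.3% E, 26.5% L). The lone members were 13 E, 7 M and 2 L (59.1% E, 9.09% L), against 59.2% E and 12.6% L of all genes. In MEFs the clustered members were 15 E, 39 M and 14 L (22.1% E, 20.6% L). There the lone members were 17 E, 4 M and 1 L (77.3% E, 4.55% L), against 61.1% E and 11.0% L of all genes. Clusters held 30 of the 35 L members in CH12 cells, 18 of 20 in primary B cells and 14 of 15 in MEFs. All members were in 1 state in 5 clusters in CH12 cells, 5 in primary B cells and 4 in MEFs, and in 4, 4 and 2 of these that state was E.

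The Cyp2c array on chromosome 19 (chr19:39081509-40261823), whose enzymes oxidize drugs and convert arachidonic acid to epoxides, held 14 members and no other protein-coding gene start. In CH12 cells its first members Cyp2c55 and Cyp2c65 and its last, Cyp2c70, a bile acid hydroxylase, were M, and the 11 between them were L. In primary B cells the first 4 and last 3 members were M and the 7 in the middle L. In MEFs the first 4 and last 5 were M and the 5 in the middle L. One L domain covered the centre in each map. It measured 1080 kb in CH12 cells (chr19:39160001-40240000), 740 kb in primary B cells (chr19:39340001-40080000) and 600 kb in MEFs (chr19:39340001-39940000), each lying within the one before. Compared with CH12, the left edge stood 180 kb further in both in primary B cells and in MEFs, and the right edge 160 kb and 300 kb further in. The members that changed from L to M between CH12 and primary B cells were Cyp2c66 and Cyp2c29 on the left and Cyp2c54 and Cyp2c50 on the right. The members in L in all 3 maps were Cyp2c38, Cyp2c39, Cyp2c67, Cyp2c68 and Cyp2c40. The nearest genes outside the array were not L in any map. Hells, a chromatin remodeller 76.1 kb to the left, was M in all 3, and Pdlim1, a cytoskeletal adaptor 84.3 kb to the right, was M in the B cell maps and E in MEFs.

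The array of Cyp2a, Cyp2b, Cyp2f, Cyp2g, Cyp2s and Cyp2t genes on chromosome 7 (chr7:26587494-27943687) had the same form with E genes at its ends in 2 of the maps. It held 13 members, among them Cyp2b10, the classical phenobarbital-induced gene, Cyp2a5, the coumarin 7-hydroxylase, Cyp2g1 of the olfactory lining and Cyp2f2 of airway club cells. In CH12 cells the first 2 and last 4 members were M and the 7 between L, in an L domain of 900 kb (chr7:26780001-27680000). In primary B cells the L domain was 580 kb (chr7:27020001-27600000) and held Cyp2a4, Cyp2b23, Cyp2b19 and Cyp2g1. On either side, Cyp2b13, Cyp2b9 and Cyp2a5 were then M, as they were in MEFs, and Cyp2s1, Cyp2b10, Cyp2f2 and Cyp2t4 at the ends were E. This was the only cluster to hold both E and L members in any of the 3 maps. In MEFs it held no L member. The 4 end members were E and the other 9 lay in an M domain of 1140 kb. The neighbours Axl, a receptor tyrosine kinase 28.2 kb below, and Egln2, an oxygen-sensing prolyl hydroxylase 13.1 kb above, were both E in primary B cells and MEFs. In CH12 cells Axl was M and Egln2 E. Of the 7 other protein-coding gene starts between the members, 5 were L in both B cell maps and M in MEFs. These were the vomeronasal receptors Vmn1r184 and Vmn1r185 and Nlrp9c, Nlrp4a and Nlrp9a. The others, Gm4613 and Gm6434, were M in CH12 cells and E in primary B cells and MEFs.

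The Cyp3a array on chromosome 5 (chr5:146106148-146924861) holds 6 members, among them Cyp3a11, a major drug-oxidizing enzyme of mouse liver induced through the pregnane X receptor. Cyp3a44 and Cyp3a11 were L in all 3 maps. Cyp3a57 and Cyp3a16 at the low end were M in all 3. Cyp3a25 was L in CH12 cells and MEFs and M in primary B cells, and Cyp3a59 was M in both B cell maps and L in MEFs. The L domain measured 600 kb in CH12 cells and 420 kb in each of the other two, but its MEF position (chr5:146500001-146920000) was shifted to the right of that in primary B cells (chr5:146320001-146740000). This locus also held the lowest share of unique sequence among the loci, 64.7% of 50-base windows.

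The remaining arrays of 6 or more members fell into late, middle and early examples. All 7 Cyp2j members on chromosome 4, epoxygenases of arachidonic acid, were L in CH12 cells, inside an L domain of 3920 kb. In primary B cells and MEFs Cyp2j13 and Cyp2j12 at the low end were M and the other 5 L, in L domains of 1320 kb and 1080 kb. The 6 members of the Cyp4a, Cyp4b and Cyp4x array on chromosome 4 were all M in primary B cells and MEFs. In CH12 cells a 260 kb L domain covered Cyp4a14 and Cyp4a10, fatty acid omega-hydroxylases induced through PPAR-alpha, and the other 4, from Cyp4x1 to Cyp4b1, were M. The 8 Cyp2d members on chromosome 15, relatives of the human debrisoquine hydroxylase, held no L start in any map. Cyp2d22, Cyp2d11 and Cyp2d10 at the low end were E in all 3, and Cyp2d12 and Cyp2d34 in the centre M in all 3. The M domain between E domains measured 340 kb in CH12, 220 kb in primary B cells and 400 kb in MEFs, and Cyp2d9 and Cyp2d40, M in CH12 cells and MEFs, were E in primary B cells. Cyp2d26 at the high end was E in both B cell maps and M in MEFs. All 7 Cyp4f members on chromosome 17, leukotriene and fatty acid omega-hydroxylases, were E in both B cell maps. In MEFs the first 3, from Cyp4f39 to Cyp4f16, were E and the last 4, from Cyp4f40 to Cyp4f13, were M. The plot of array domains sets these patterns side by side.

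**Figure D2:**
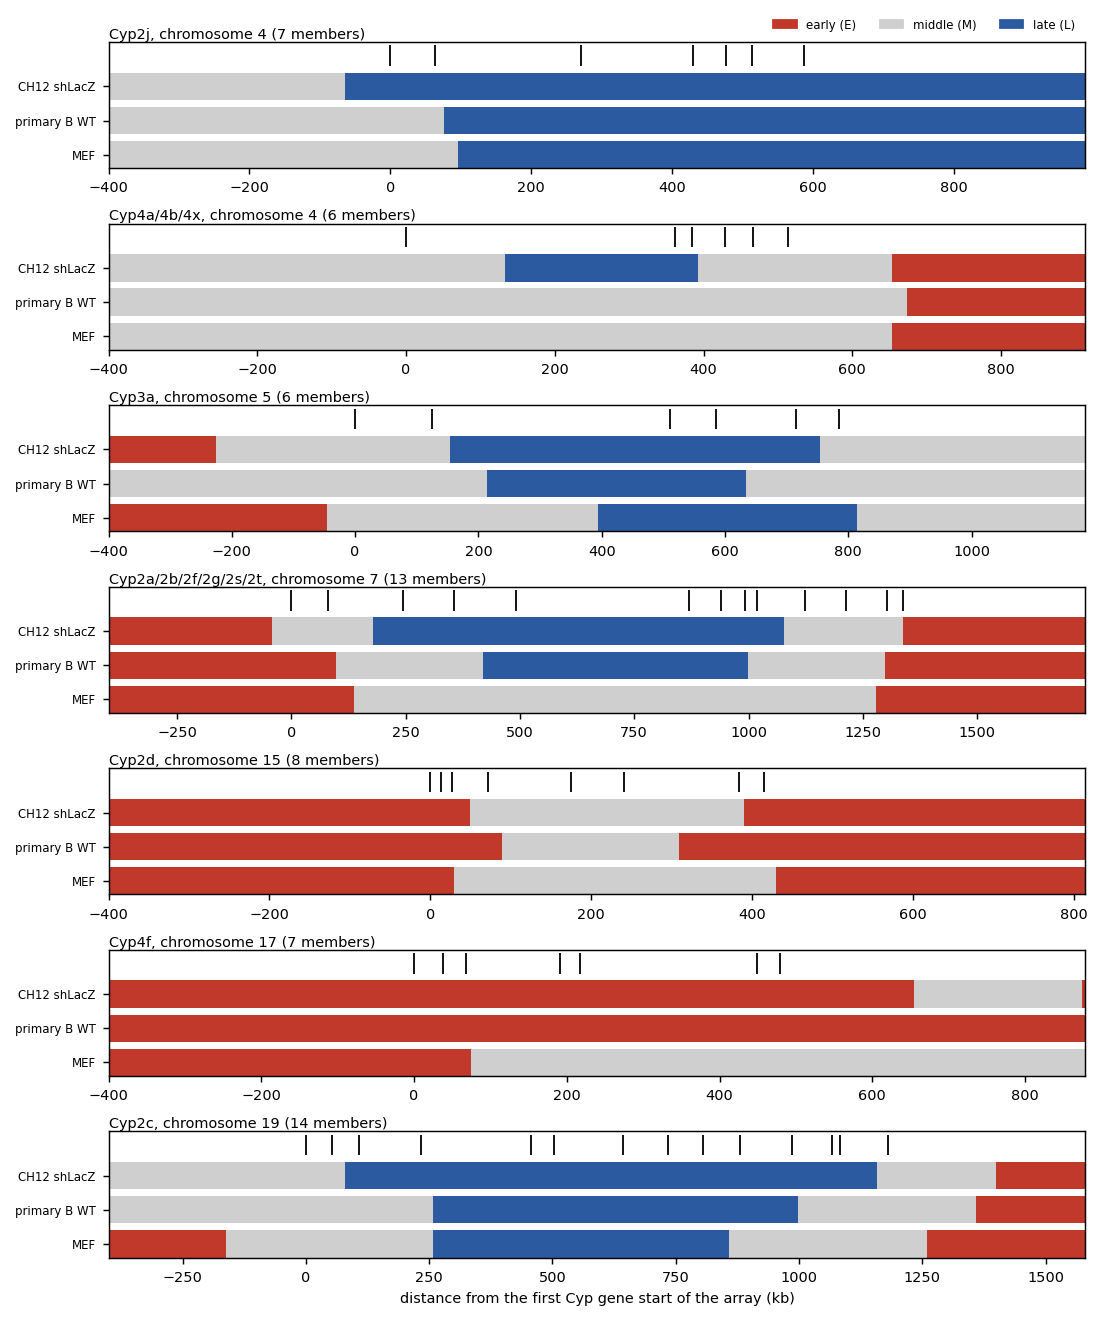
Replication timing domains over the 7 arrays with 6 or more Cyp genes, with 400 kb on each side. The x axis is the distance in kb from the first Cyp gene start of the array, black ticks are Cyp gene starts, and the 3 rows are the CH12 shLacZ, primary B WT and MEF maps (red E, grey M, blue L). The L block of the Cyp2c array narrows from 1080 kb in CH12 to 740 kb and 600 kb, and that of the chromosome 7 array from 900 kb to 580 kb, with none in MEFs.

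The small clusters were E in the B cell maps. Cyp1a1 and Cyp1a2, which oxidize planar aromatic compounds, and Cyp11a1, which makes the first cut in steroid synthesis, were E in all 3 maps. So were Cyp26c1 and Cyp26a1. Cyp11b1 and Cyp11b2, which finish glucocorticoid and aldosterone synthesis, were E in both B cell maps and M in MEFs.

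Members that differed between the B cell maps shifted almost entirely toward earlier states in primary B cells. Of the 90, 24 moved to an earlier state from CH12 to primary B cells (26.7%, 18.6 to 36.6), against 18.3% of all genes. The interval began just above the share of all genes. It covers counting error only, and neighbours in an array are not independent, so the difference was not tested. One member, Cyp19a1, was in a later state, 1.11% against 2.8%, and 65 were in the same state (72.2%), against 78.9%. All 29 E members of the CH12 map stayed E, against 95.6% of all E genes. Of the 26 M members, 8 were E in primary B cells, 17 M and 1 L. Of the 35 L members, 16 were M (45.7%), against 40.2% of all L genes, and 19 were L (54.3%), against 56.8%. None went from L to E, against 2.92% of all L genes. The same gap between the maps over all genes means that the direction of the members' shifts was also that of the genome.

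The MEF map differed from CH12 in both directions. Here 29 members were earlier (32.2%, 23.5 to 42.4), against 23.4% of all genes, and 8 were later (8.89%), against 5.87%. Of these 8, 7 went from E to M, which were Cyp11b1, Cyp11b2, Cyp2d26, Cyp4f40, Cyp4f15, Cyp4f14 and Cyp4f13, and Cyp3a59 went from M to L. Between primary B cells and MEFs, 12 members were earlier in MEFs (13.3%), against 13.6%, and 12 later (13.3%), against 10.3%. Both comparisons with MEFs share that map, and both comparisons with CH12 share the CH12 map.

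Over the 3 maps, 22 members were E in all (24.4%), against 45.8% of all genes, 13 were M in all (14.4%), against 10.4%, and 13 were L in all (14.4%), against 7.73%. The 13 in L were Cyp7b1, Cyp2j11, Cyp2j8, Cyp2j6, Cyp2j9, Cyp2j5, Cyp3a44, Cyp3a11 and the 5 central Cyp2c genes named above. Of the 32 loci, 19 had the same states in both B cell maps and 14 in all 3. The plot of members in genome order gives the state of every member in each map.

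**Figure D3:**
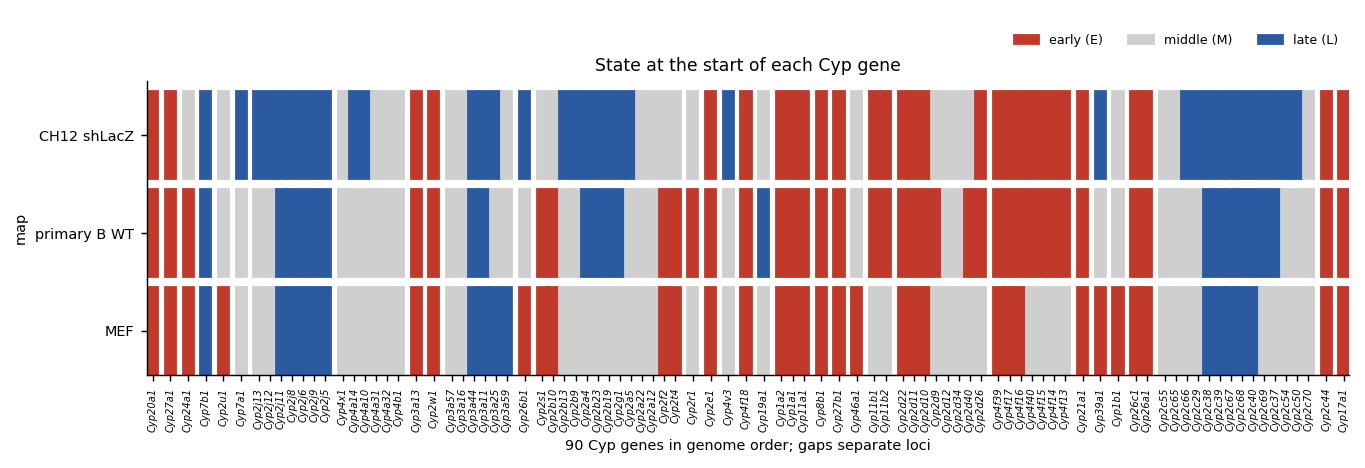
State at the start of each of the 90 Cyp genes (x axis, in genome order, with gaps between the 32 loci) in the CH12 shLacZ, primary B WT and MEF maps (rows; red E, grey M, blue L). Runs of L lie inside arrays, 30 of 35 L members in CH12 cells, and most lone genes are E or M.

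Most members that changed state between the B cell maps lay near domain ends. This is partly built in, because the change and the distance are read from the same domain limits. Of the 25 such members, 22 (88.0%) were within 100 kb of a domain end in either B cell map, against 61.3% of all genes that changed state. Members as a whole also lay nearer to domain ends than all genes, as given below, so 88.0% and 61.3% do not start from a like base. The 25 members lay in 13 loci, and 18 were in clusters. Among the 44 members farther than 100 kb from a domain end in both B cell maps, 6.82% moved earlier from CH12 to primary B cells, against 10.4% of the 14863 genes chosen in the same way. A start crossed by an edge that moved a short way is left out by this choice itself, so a lower share than over all starts is partly built in. Over all members 34 (37.8%) were within 100 kb of a domain end in CH12 cells, 33 (36.7%) in primary B cells and 26 (28.9%) in MEFs, against 4294 of the 21418 genes in CH12 cells and 18.6% and 15.4% of all genes in the other maps. In CH12 cells the nearest was Cyp2t4, 1.27 kb from the end of its M domain, and the farthest Cyp21a1, 1378 kb inside an E domain. Cyp19a1 in primary B cells was 4.08 kb from the end of an L domain of 200 kb, so its later state there rested on less than 1 bin. Domain edges were drawn after smoothing over 300 kb, and no edge that lay inside an array in both maps moved by more than that span. Edges without a counterpart in the other map were not counted. Such were the edges of the CH12 L domains of the chromosome 7 array (900 kb) and the Cyp4a, Cyp4b and Cyp4x array (260 kb), set against MEFs. Outside the arrays the difference could be larger. The L domain over the Cyp2j array ended at chr4:99600000 in CH12 cells and at chr4:97140000 in primary B cells.

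Among lone members, the states followed no single pathway. Cyp17a1, which makes androgens, and Cyp21a1, which makes corticosteroids, were E in all 3 maps, although Cyp21a1 has a near-identical pseudogene and 68.1% of its 50-base windows were unique. The bile acid and oxysterol genes were spread over all states. Cyp27a1 and Cyp8b1 were E in all 3, and Cyp7b1 L in all 3. Cyp7a1, the rate-limiting enzyme of bile acid synthesis, was L in CH12 cells and M in the other maps. Cyp39a1, an oxysterol hydroxylase, was L in CH12, M in primary B cells and E in MEFs. Cyp46a1, which hydroxylates cholesterol in neurons, was M in both B cell maps and E in MEFs. All 3 vitamin D genes were E in primary B cells, with an interval of 43.9% to 100% that included the 59.2% of all genes. Cyp27b1, which makes the active hormone, was E in all maps, Cyp24a1, which degrades it, was M in CH12 and E in the others, and Cyp2r1, the 25-hydroxylase, was M in CH12 and MEFs. Cyp26b1, a second retinoic acid hydroxylase, was L in CH12, M in primary B cells and E in MEFs, while its relatives Cyp26a1 and Cyp26c1 were E throughout. Of the remaining lone genes, Cyp20a1, Cyp3a13, Cyp2w1, Cyp2e1 (which oxidizes ethanol), Cyp4f18 (a leukotriene hydroxylase of neutrophils) and Cyp2c44 were E in all 3. Cyp4v3, a fatty acid hydroxylase, was L, M and M in CH12, primary B cells and MEFs. Cyp2u1, which hydroxylates long-chain fatty acids, and Cyp1b1, which oxidizes oestrogens and aromatic compounds, were M in both B cell maps and E in MEFs. Cyp3a13 and Cyp2c44 thus differed in state from the L centres of the Cyp3a and Cyp2c arrays.

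By role, the 56 members of families 1 to 3 counted here were 10 E, 18 M and 28 L in CH12 cells, 16, 22 and 18 in primary B cells and 15, 27 and 14 in MEFs. Their E shares were 17.9%, 28.6% and 26.8%, against 51.8%, 59.2% and 61.1% of all genes. Their L shares were 50.0% (37.3 to 62.7), 32.1% (21.4 to 45.2) and 25.0% (15.5 to 37.7), against 21.3%, 12.6% and 11.0%. All of these L starts lay in the Cyp2c, Cyp2j or Cyp3a array or the chromosome 7 array, and none at a lone member. Neighbours in an array share a domain, so the members are not independent and the intervals cover counting error only. The 15 members of family 4 were 8 E, 4 M and 3 L in CH12 cells, and held no L start in the other maps. Their E share in CH12 cells was 53.3%, near the 51.8% of all genes, and their L interval, 7.05% to 45.2%, included 21.3%. In the other maps the L interval reached 20.4%, so it included 12.6% and 11.0%. Family 4 was thus not shown to differ from all genes in its L share. In MEFs 4 members were E (26.7%), against 61.1%. Of the 6 steroid synthesis genes, 5 were E in both B cell maps, with Cyp19a1 the exception in each. In MEFs 3 were E and 3 M (50.0% E, 18.8 to 81.2), against 61.1% of all genes. No steroid, vitamin D or retinoic acid gene other than Cyp19a1 in primary B cells and Cyp26b1 in CH12 cells was L. These groups held 6, 3 and 3 genes, and their intervals for L included the L shares of all genes.

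The genes that serve the enzymes are set beside the E shares of all genes given above, 51.8%, 59.2% and 61.1% in CH12, primary B cells and MEFs. Of the redox partners that pass electrons to P450 enzymes, Por, Cyb5b, Cyb5r3, Fdx1 and Fdxr were E in all 3 maps. The interval of this share, 56.6% to 100%, included the E shares of all genes in primary B cells and MEFs but not in CH12 cells. Cyb5a was not analysed here. Of 8 receptors that control Cyp genes, 5 were E in CH12 cells, 7 in primary B cells and 6 in MEFs, and none was L. The intervals of these shares, 30.6% to 86.3% in CH12 cells and 40.9% to 92.9% in MEFs, included those of all genes, as did that in primary B cells, 52.9% to 97.8%. Ahr was M in CH12 and MEFs and E in primary B cells, Hnf4a was M only in CH12, and Nr1h4, the bile acid receptor, was M throughout. Of 8 haem synthesis genes, 6 were E in both B cell maps (interval of the share 40.9% to 92.9%), Uros and Fech were M there, and all 8 were E in MEFs. Other clustered families for detoxification varied. The 9 Ugt2 genes, which attach glucuronic acid to steroids and drugs, were L in all 3 maps, whereas the 9 Ugt1a genes were 2 E and 7 M in CH12 cells and 6 E and 3 M in both other maps. Glutathione transferase genes (22) were mostly E, 17, 19 and 20 of them in CH12, primary B cells and MEFs. Sulfotransferase genes (17) were mostly L, 12, 10 and 9 of them (70.6%, 58.8% and 52.9%). The L shares of all genes in the 3 maps were 21.3%, 12.6% and 11.0%. For the clustered families unrelated to detoxification, 31 of 97 keratin genes and 31 of 53 defensin genes were L in CH12 cells, against 35 of the 90 Cyp genes. Their intervals, 23.5% to 41.8%, 45.1% to 70.7% and 29.5% to 49.2%, lay above the 21.3% of all genes. In primary B cells and MEFs the keratin interval was 12.9% to 28.6%, just above the 12.6% and above the 11.0% of all genes. The defensin intervals there were 32.7% to 58.5% and 22.7% to 47.4%. An L share above that of all genes was therefore not particular to Cyp arrays. These intervals cover counting error only.

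State followed base composition among the members as it did among all genes. In CH12 cells the median GC content within 500 kb of the start was 46.1% for E members, 44.1% for M members and 40.5% for L members, against 46.6%, 42.9% and 40.2% over all genes of the same states. The lowest GC was 38.7%, at Cyp2c67 and Cyp2j5, both L. Cyp20a1, an orphan P450, was an exception, E in all maps at 40.2%. Other protein-coding starts in the same window numbered 26, 18.5 and 9 at the median in E, M and L, against 21, 11 and 9. Gene density helped to name the states, so that order is built in for all genes. Unique sequence fell along the same order. Of the 50-base windows in the bins of each gene, the median share that occurred once in the genome was 96.8% for E, 87.1% for M and 80.4% for L members. Bins of the member loci held 79.1% unique windows in all, against 89.7% over 1201 bins sampled along the autosomes. Reads of 50 bases were kept only where they aligned uniquely, and read counts were not analysed here. The part of unique sequence in the states was not tested. The plot of surroundings by state shows the spread of these measures.

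**Figure D4:**
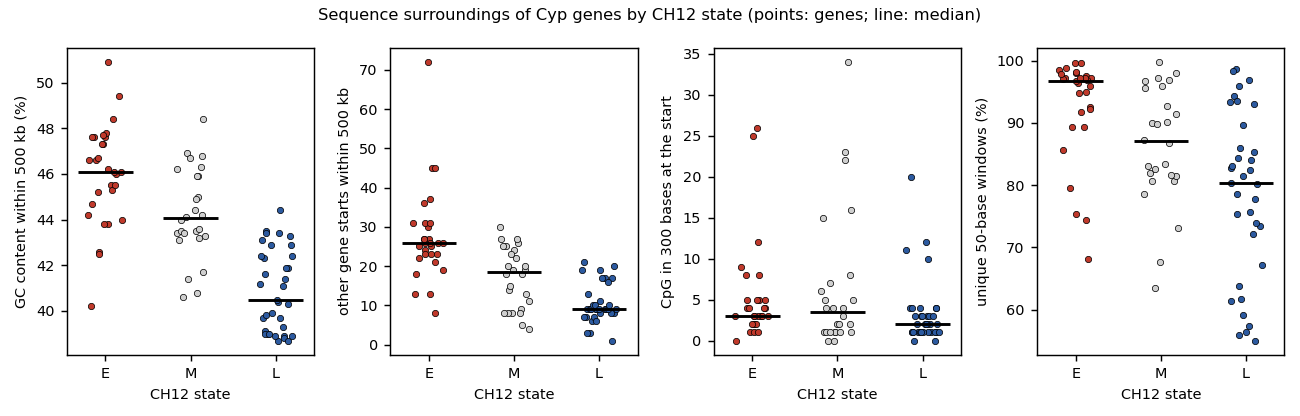
Surroundings of the 90 Cyp genes by their CH12 state (x axis): GC content within 500 kb of the start (percent), number of other protein-coding gene starts within 500 kb, CpG in the 300 bases around the start, and percent of 50-base windows that occur once in the genome. Points are genes and lines medians, which fall from E to L for GC content (46.1% to 40.5%) and unique windows (96.8% to 80.4%), while CpG counts are low in every state.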

How the data were processed

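Repli-seq was made from early and late S phase fractions sorted from BrdU-labelled cells. Per their methods and processing notes, the authors trimmed 50-base single-end reads with Trim Galore 0.6.5, aligned them to mm9 with bwa mem (BWA 0.7.17), kept unique alignments, removed duplicates and merged replicates. They computed log2 early over late in windows of 20 kb, smoothed by loess over 300 kb, and called 3 states with a hidden Markov model. The deposited files give each domain's start, end and state number (a code, unit "other") with no RT value, and read depth is unknown, so no test was possible. The MEF map is listed in the study's supplement as coming from an earlier public series.

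The middle state was the one that touched both others, since E and L domains met 0 times in each map. Of the other two, E was the one in which protein-coding genes started more often per Mb. The last domain of each chromosome ended at its NCBIM37 (mm9) length. Gene starts came from GENCODE M1 and were assigned to domains with Python 3.11.15, pandas 2.3.3 and numpy 2.4.6, after 8 checks of the placing functions on simulated data. Unique 50-base windows were counted on both strands of the genome. Shares have Wilson 95% intervals. Samples were grouped by title. Named genes are those whose state differed between the B cell maps, the first and last member of each cluster, lone members, the members nearest to and farthest from a domain end, and the partner lists; other members were named as the text needed, after their states were seen. The members and lists were chosen with earlier results of these data known. Alternatives were the cluster gap, the gene point used, pseudogenes, equal weight per locus, omission of starts near edges, and, added after seeing the data, omission of the largest array and of loci with few unique windows.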

Additional observations from a re-analysis of the deposited data

How the results depend on the processing

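Of 81 values computed for 14 results under the alternatives, 68 stayed within the counting interval of the reported value, or within the limit set for a count, and 13 moved beyond it. With each locus weighted equally, the CH12 shares were 48.4% E and 25.5% L, the primary B shares 56.4% E and 12.0% L, and the MEF shares 62.8% E, 28.6% M and 8.56% L. Of these, L in primary B cells and E and L in MEFs crossed to the other side of the share of all genes, 12.6%, 61.1% and 11.0%. Those shares of all genes were not weighted by locus. Without gene starts within 100 kb of a domain edge, the CH12 shares were 42.9% E and 14.3% M, and 6.82% of the 44 members left moved earlier from CH12 to primary B cells. With clusters split at gaps above 200 kb there were 15 clusters in place of 10, a change that was still counted as within the limit set for a count. Of these, 8 in CH12 cells, 10 in primary B cells and 10 in MEFs held 1 state, and these counts moved beyond it. No paired analysis was possible because each deposited map pooled its replicates, and for the same reason no replicate could be left out. The unknown depth and the smoothing over 300 kb limit how finely a start near an edge can be placed.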
